A study of Homo sapiens with 40 samples.

Results

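Gene expression was compared in 10 established DLBCL lines (diffuse large B-cell lymphoma, a fast-growing cancer of B cells) between EZH2 mutant and EZH2 wild type lines that had received only the vehicle. The vehicle arrays number 20 of the 40 arrays of the series, and the other 20 come from the same lines given 500 nM of GSK126, a small-molecule inhibitor of EZH2. The mutant group was DB, SU-DHL-4, SU-DHL-6, Pfeiffer, SU-DHL-10, KARPAS-422 and WSU-DLCL2, with 14 arrays, and the wild type group was HT, OCI-LY-19 and Toledo, with 6 arrays. Each line received 0.1% DMSO for 72 h and has 2 such arrays, whose mean gave 1 value per line. The titles name these arrays biological replicates, but the labels do not say whether they came from separate cultures. The line is therefore the replicate, and the comparison has 7 lines against 3. The labels give the EZH2 status of a line but neither the amino acid changed nor other mutations of the line. Each genotype thus stands for a few tumours that differ in much else, and the effect of EZH2 cannot be told apart from other differences between lines.

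EZH2 is the catalytic subunit of Polycomb repressive complex 2 (PRC2), which methylates lysine 27 of histone H3 (H3K27) and so helps to keep genes silent. In the germinal centre, where B cells mutate their antibody genes and divide fast, EZH2 is abundant and holds back genes of B cell exit and differentiation. Mutations that change which methylation state the enzyme prefers occur in lymphomas that arise from germinal centre B cells.

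The values are log2(signal + 17.72), a scale on which the fold changes of dim genes are understated, and levels are compared only within a gene. A gene was tested if 2 or more arrays had it above their own median, and called at a Benjamini-Hochberg adjusted p under 0.05 in limma. Array medians were 6.26 to 6.72. The 2 arrays of a line correlated at 0.984 to 0.989, and the median SD of a gene was 0.17 between the arrays of a line, 0.46 between mutant lines and 0.44 between wild type lines. Of 5 measured B cell markers, CD79A, CD79B, PAX5 and CD22 were above the median on all 20 arrays, while MS4A1 (CD20) was at 5.64 in OCI-LY-19 and at 12.34 to 14.39 in the other lines. Of 8 measured T and NK cell markers, CD2, NKG7 and GNLY were below the median on all 20 arrays, while CD247 was above it on all 20, with line means of 7.43 to 12.24. CD3D stood at 12.34 in KARPAS-422 and at most at 6.02 elsewhere, CD3G at 11.84 in KARPAS-422 and at most at 5.41 elsewhere, and CD8A at 13.66 in Pfeiffer and at most at 6.47 elsewhere. In bulk RNA, fewer cells with a transcript and less of it per cell cannot be told apart. The summed linear signal of these 8 markers was 512 to 17981 in mutant lines and 390 to 3020 in wild type lines, while that of 7 stromal and epithelial markers was 557 to 15655 and 621 to 711. Among the latter, EPCAM stood at 13.57 in Pfeiffer and at most at 5.44 elsewhere, and DCN at 11.11 to 13.87 in WSU-DLCL2, DB, SU-DHL-4 and KARPAS-422 and lower in the other lines. The part of these markers in the results was not tested.

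Which genes differ between untreated mutant and wild type lines was the first question. Of 15211 genes tested, 4 were called higher in mutant lines (0.0263%) and 4 were called lower (0.0263%). The higher genes were PLEK, SOBP, TRIB2 and ANKRD44, and the lower genes were IGLL1, MID1IP1, TGIF1 and APOL3. At an unadjusted p under 0.05 there were 578 genes higher (3.8%) and 606 lower (3.98%). All 7 mutant lines lay above all 3 wild type lines in 167 genes (1.1%) and below them in 193 genes (1.27%). With arrays brought to equal medians, these non-overlapping genes numbered 236 and 125, since that scaling moved the median difference of all genes from -0.01 to 0.10. Of all genes 48.8% were higher in mutant lines, at any p. The shares in this paragraph are the background for the counts of list members below.

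**Figure D1:**
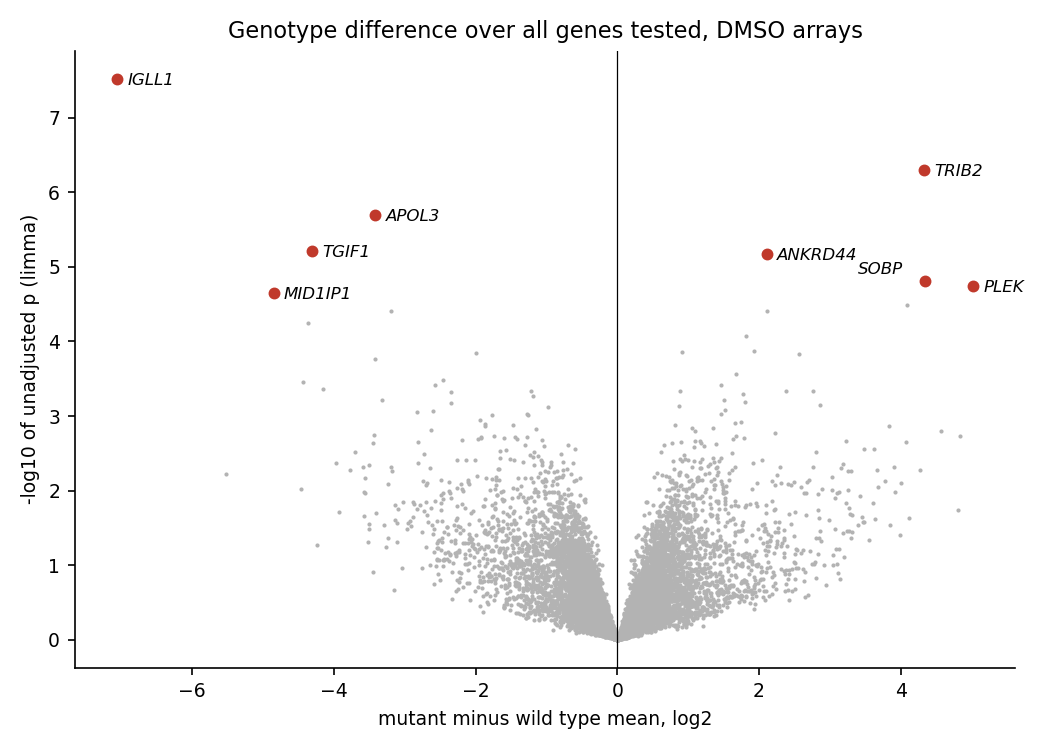
Each point is 1 of 15211 genes; the x axis is the mutant minus wild type difference in log2 units and the y axis is -log10 of the unadjusted limma p. The 8 named points passed the adjusted threshold: IGLL1 lies farthest to the left at -7.06 and PLEK farthest to the right at 5.02.

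IGLL1 had the largest difference of all called genes, measured by only 1 probe set. It encodes the lambda5 part of the surrogate light chain, which pairs with the heavy chain in precursor B cells before a true light chain is made. Its level was 12.62 in HT, 14.01 in OCI-LY-19 and 14.07 in Toledo, against 5.55 (SU-DHL-10), a median of 6.36 and 7.79 (KARPAS-422) in mutant lines. The groups were 4.83 apart at their nearest lines. The difference was -7.06 ± 0.49 (SE; limma, adjusted p = 0.000458). The mutant lines lay around the array medians, where a signal above background was not shown, so no fold is given. The 2 arrays of SU-DHL-4, at 4.71 and 6.93, were the widest pair for this gene and both were far below every wild type array.

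Other light chain genes, looked up after IGLL1 was seen, had other patterns. VPREB1, the partner of IGLL1 in the surrogate light chain, was at 12.88 in OCI-LY-19 and 12.11 in Toledo but at 5.12 in HT, and mutant lines reached 9.52 in WSU-DLCL2. Its difference of -3.51 ± 1.58 was not called (limma, adjusted p = 0.640). IGLL5, a light chain gene of the same locus, was at 12.54 in Toledo and at most 7.78 in the other lines. IGLC1, a lambda constant region, was at 10.82 or more in every line except KARPAS-422, at 6.45.

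MID1IP1, a microtubule-binding protein that also activates acetyl-CoA carboxylase in fatty acid synthesis, was at 12.13 in HT, 11.23 in OCI-LY-19 and 11.72 in Toledo. Mutant lines ran from 5.79 in KARPAS-422 through a median of 6.31 to 9.24 in Pfeiffer, so that Pfeiffer was the mutant line nearest to the wild type level. The difference was -4.85 ± 0.68 (limma, adjusted p = 0.0424), from the only 1 probe set of MID1IP1. TGIF1, a homeobox repressor that restrains TGF-beta signalling through SMAD proteins, was at 11.01 in HT, 10.55 in OCI-LY-19 and 10.03 in Toledo. In mutant lines it ran from 5.60 in SU-DHL-6 through a median of 5.76 to 8.04 in KARPAS-422, and no line crossed. The difference was -4.31 ± 0.52 (limma, adjusted p = 0.0205), and all 3 probe sets of TGIF1 were lower in mutant lines.

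APOL3, an apolipoprotein L family member induced by interferon, was at 7.37 in HT, 9.27 in OCI-LY-19 and 7.51 in Toledo. The 7 mutant lines lay within 4.52 to 4.93, with a median of 4.59, near the bottom of the scale, where a signal of 0 reads 4.15. The difference of -3.42 ± 0.37 (limma, adjusted p = 0.0102) is thus set by how far the wild type lines stand above that floor. APOL3 also has only 1 probe set.

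PLEK encodes pleckstrin, a substrate of protein kinase C in platelets and white blood cells. It was at 5.82 in HT, 7.01 in OCI-LY-19 and 6.76 in Toledo, and mutant lines ran from 10.16 in Pfeiffer through a median of 11.68 to 13.22 in KARPAS-422. The groups were 3.15 apart, the widest gap of the 4 higher genes. The difference was 5.02 ± 0.68 (limma, adjusted p = 0.0395). Here the wild type lines were the ones around the array medians.

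SOBP, a nuclear zinc finger protein, was at 5.87 in HT, 7.18 in OCI-LY-19 and 9.09 in Toledo against 10.98 (SU-DHL-10), a median of 11.87 and 12.43 (DB) in mutant lines. Its difference was 4.34 ± 0.58 (limma, adjusted p = 0.0389). All 8 of its probe sets were higher in mutant lines, but by only 0.22 for the one that moved least, and the mean of all of them was not called.

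TRIB2, a pseudokinase of the Tribbles family that directs proteins to degradation, was at 8.09 in HT, 7.40 in OCI-LY-19 and 6.49 in Toledo. Mutant lines held a narrow range, from 11.07 in SU-DHL-4 through a median of 11.52 to 12.53 in DB. The difference was 4.33 ± 0.40 (limma, adjusted p = 0.00383). ANKRD44, an ankyrin repeat subunit of protein phosphatase 6, was at 8.57 in HT, 9.77 in OCI-LY-19 and 8.89 in Toledo against 10.93 (KARPAS-422), a median of 11.18 and 11.46 (SU-DHL-4). Its difference, 2.11 ± 0.26, was the smallest of the 8 (limma, adjusted p = 0.0205).

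**Figure D2:**
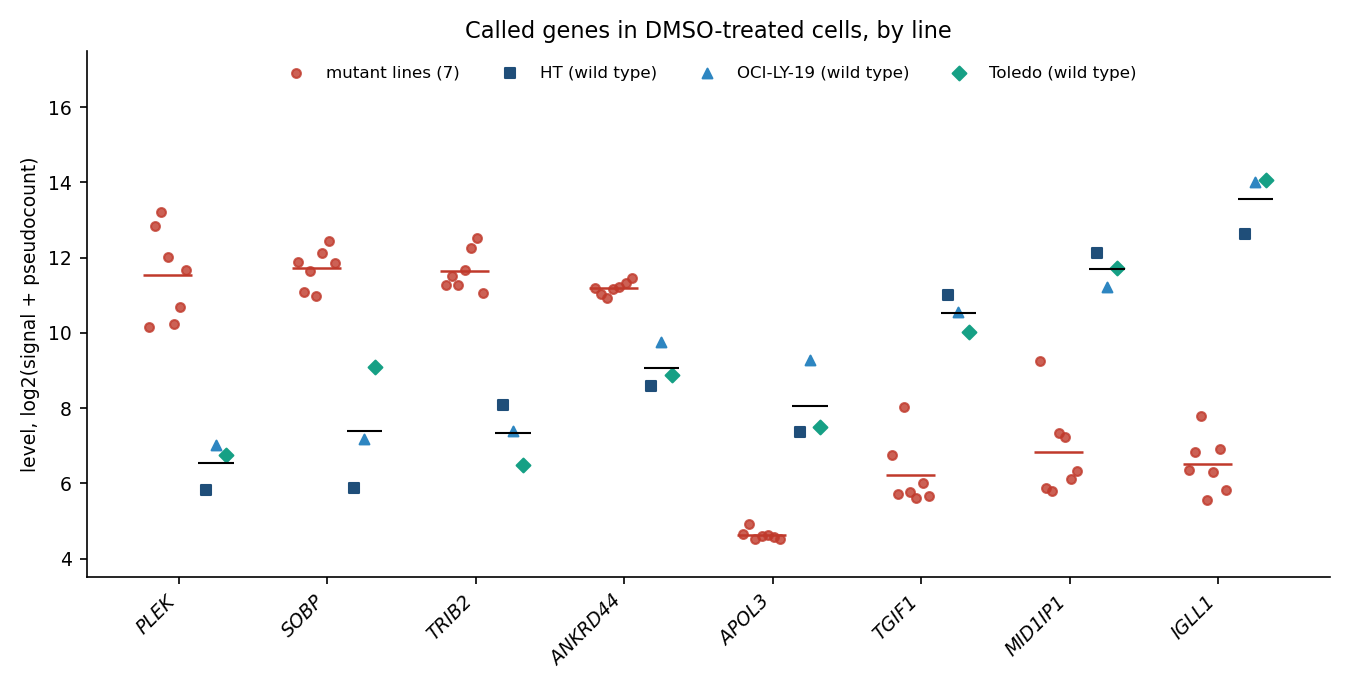
Level of the 8 called genes, in log2(signal + pseudocount), with 1 point per line (mean of 2 DMSO arrays) and short lines at the group means. In each gene the 7 mutant lines and the 3 wild type lines do not overlap; the nearest gap is 1.16 (ANKRD44) and the widest 4.83 (IGLL1).

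The promoters of the pair of genes with the largest difference in each direction are given because PRC2 is known to settle at promoters rich in CG dinucleotides. Each window runs from 250 bases before to 50 bases after the RefSeq start, 5′ to 3′ on the gene's strand, with CG in capitals. IGLL1 is at chr22:23580241-23580540 on the minus strand. MID1IP1 is at chrX:38801209-38801508, PLEK at chr2:68365032-68365331 and SOBP at chr6:107489867-107490166, all on the plus strand (GRCh38.p14, from RefSeq).
IGLL1: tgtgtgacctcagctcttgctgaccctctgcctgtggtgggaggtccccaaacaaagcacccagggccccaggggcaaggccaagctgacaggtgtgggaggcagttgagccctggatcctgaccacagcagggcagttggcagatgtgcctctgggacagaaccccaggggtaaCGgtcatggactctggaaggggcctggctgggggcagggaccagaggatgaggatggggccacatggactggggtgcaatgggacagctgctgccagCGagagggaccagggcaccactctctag
MID1IP1: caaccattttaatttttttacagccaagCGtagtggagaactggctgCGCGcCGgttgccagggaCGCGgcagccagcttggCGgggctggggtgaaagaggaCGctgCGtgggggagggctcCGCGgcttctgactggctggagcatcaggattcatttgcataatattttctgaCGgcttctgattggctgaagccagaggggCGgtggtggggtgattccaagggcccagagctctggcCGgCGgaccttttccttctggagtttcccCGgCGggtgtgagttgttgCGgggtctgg
PLEK: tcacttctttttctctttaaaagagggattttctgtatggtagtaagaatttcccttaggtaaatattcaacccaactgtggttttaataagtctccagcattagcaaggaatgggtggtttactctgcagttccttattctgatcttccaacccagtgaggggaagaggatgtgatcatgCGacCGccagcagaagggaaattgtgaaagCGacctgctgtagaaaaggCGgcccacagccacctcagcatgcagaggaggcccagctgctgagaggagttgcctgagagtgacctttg
SOBP: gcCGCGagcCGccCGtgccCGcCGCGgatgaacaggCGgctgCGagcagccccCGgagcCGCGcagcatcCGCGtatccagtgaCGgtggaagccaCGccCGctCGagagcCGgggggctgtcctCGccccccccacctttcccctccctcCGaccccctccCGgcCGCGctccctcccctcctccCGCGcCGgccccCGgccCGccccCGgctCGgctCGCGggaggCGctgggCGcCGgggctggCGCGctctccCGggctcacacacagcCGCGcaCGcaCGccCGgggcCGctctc

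The windows differ in CG content. IGLL1 holds 2 CG, a count that 89% of 35116 such windows reach, and PLEK holds 4, which 75.5% reach. MID1IP1 holds 18 (44.5% of windows have as many) and SOBP holds 45 (3.48%). TRIB2 and ANKRD44, with 42 and 43, are also in the CG-rich tail (5.85% and 4.98%), and TGIF1 has 7 windows that hold 7 to 39. Of the 8 called genes 7 were matched in the table, and the median window holds 14 CG. These counts describe the DNA alone, since neither PRC2 binding nor histone methylation was measured on these arrays.

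The 12 genes next in order of p, 6 in each direction, missed the threshold although none of them overlapped between groups. Higher in mutant lines were TESC, a calcium-binding protein (4.09 ± 0.59, adjusted p = 0.0544 in limma), ARHGAP25, a GTPase-activating protein of Rac in blood cells (2.12 ± 0.31), ST6GAL1, a sialyltransferase that caps B cell glycoproteins (1.82 ± 0.29), LINC03011, COMMD8 and TUBA4A. Lower were DRC8, IRS2, an adaptor of the insulin receptor (-4.37 ± 0.68), FAM53A, N4BP2L1, OTUD1, a deubiquitinase, and CLEC2B, a lectin-like ligand of NK cells (-4.43 ± 0.86). Adjusted p in limma ran from 0.0544 to 0.249 over the 12 genes. The stated sign was that of 1 of 2 probe sets of TESC and 3 of 4 of DRC8. It was that of 2 of 3 for ARHGAP25, ST6GAL1 and OTUD1. In the other genes every probe set had it, but LINC03011, COMMD8 and TUBA4A have only 1. CLEC2B shows how uneven the wild type lines could be: HT was at 7.25, close to WSU-DLCL2 at 6.86, while OCI-LY-19 and Toledo were at 11.39 and 11.79.

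The labels carry an R tag of unstated meaning, and each tag holds 1 wild type line: Toledo with Pfeiffer and KARPAS-422 under R6, HT with WSU-DLCL2, SU-DHL-10, DB and SU-DHL-4 under R7, and OCI-LY-19 with SU-DHL-6 under R8. All 8 called genes and the 12 that followed had the same sign within every tag. Their lack of overlap between groups fixed this in advance, so it is no check on the tag. IGLL1 differed by -7.00, -6.34 and -7.70 within R6, R7 and R8, TRIB2 by 4.78, 3.61 and 4.85, and PLEK by 4.93, 5.98 and 3.23. With the tag as a block, 2 genes were called in each direction, and 3 of the 8 genes were among them: IGLL1, TRIB2 and APOL3. Over all 134 genes named by the rule in the methods, 81 had the same sign within the 3 tags. Most of these genes were chosen by their p in this same contrast, and in those without overlap the sign was fixed in advance. The share over all genes tested was not computed, so this count is no check on the tag either.

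The calls depended on single lines, above all on HT. Without HT, 70 genes were called higher (0.46%) and 83 lower (0.546%), the 8 genes above among them. Without Pfeiffer there were 8 and 5. Without any one of WSU-DLCL2, SU-DHL-10, DB or SU-DHL-4 there were 1 and 2, without OCI-LY-19 there were 2 and 2, and without Toledo 3 and 2. IGLL1 and TRIB2 were called in each of these fits, and APOL3 was too. Non-overlapping genes numbered 809 and 943 without HT, 396 and 413 without OCI-LY-19, and 375 and 450 without Toledo. They were 261 to 262 and 287 to 307 without Pfeiffer, KARPAS-422 or SU-DHL-6, and fewer lines make overlap rarer by construction.

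**Figure D3:**
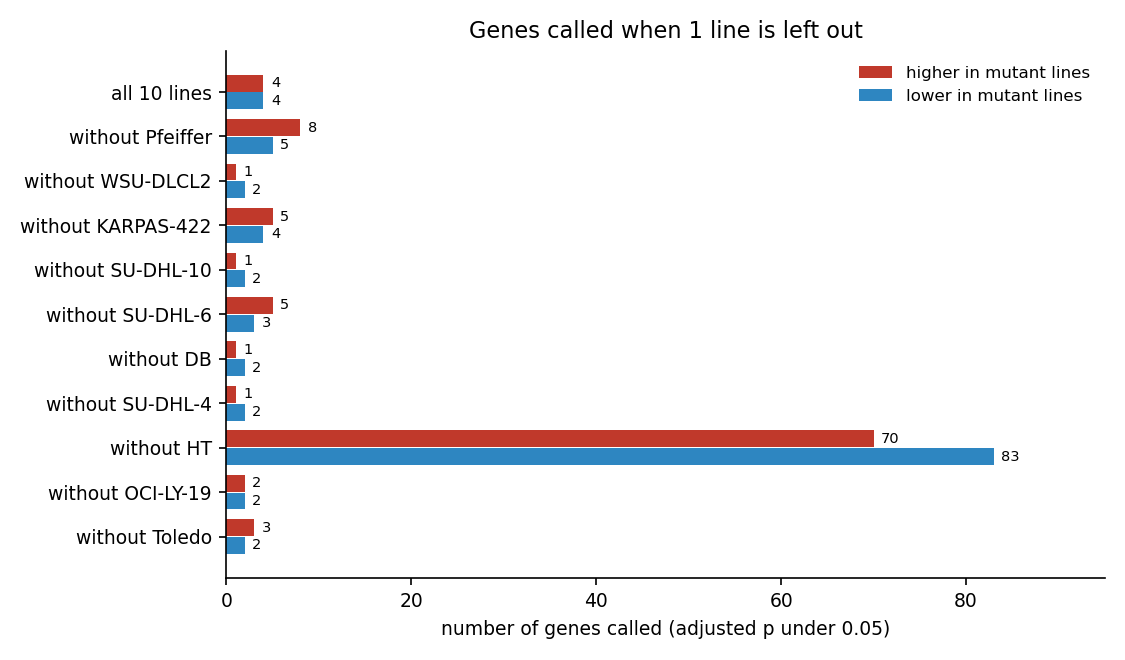
Bars give the number of genes called at an adjusted p under 0.05 in limma, higher or lower in mutant lines, with all 10 lines and with each line left out in turn. Leaving out HT gives 70 and 83 genes; no other fit passes 8 in a direction.

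HT lay on the mutant side for most genes that set OCI-LY-19 and Toledo apart. Of the 153 genes called without HT, a choice in which its arrays took no part, HT was nearer the mutant mean in 138 and inside the range of the 7 mutant lines in 95. Taking all 1752 genes in which OCI-LY-19 and Toledo did not overlap the mutant lines, HT was nearer the mutant mean in 77.8%. The same share was 49.9% for OCI-LY-19, over 809 genes, and 52.4% for Toledo, over 825 genes. In the profile over all tested genes the line nearest to HT was WSU-DLCL2 (root mean square difference 1.05), and the line nearest to KARPAS-422 was HT (1.15). OCI-LY-19 and Toledo, of different R tags, were nearest to each other (1.11). HT carries the R7 tag, as do the mutant lines WSU-DLCL2, SU-DHL-10, DB and SU-DHL-4. The part of the shared tag in the position of HT was not tested. Pairs of 1 mutant and 1 wild type line had a median distance of 1.26 (21 pairs), pairs of mutant lines 1.21 (21 pairs) and pairs of wild type lines 1.26 (3 pairs).

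Of the genes that passed only without HT, 6 are described here, chosen after their values were seen, and they stand for no group. BAHCC1, a chromatin protein that reads methylated H3K27, was at 10.69 in OCI-LY-19 and 10.57 in Toledo, at 4.50 in HT, and between 4.62 and 5.27 in mutant lines (-5.82 ± 0.25 without HT; limma, adjusted p = 1.63e-05). RAG2, a subunit of the recombinase that joins antibody gene segments in precursor B cells, was at 11.37 and 9.37 in the same lines, at 4.92 in HT and at most 5.25 in mutant lines. S1PR4, a sphingosine phosphate receptor, was at 10.75 and 10.54, against 5.67 in HT and at most 6.22 in mutant lines. These 3 genes were thus high in both of those wild type lines. In HT and every mutant line they were below the array medians of 6.26 to 6.72. For BAHCC1 and RAG2 these levels were near the bottom of the scale, where a signal of 0 reads 4.15. The difference of BAHCC1 is thus set by how far OCI-LY-19 and Toledo stand above that floor. Its small SE and p reflect values held close to the floor and lend no support beyond the levels themselves.

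The other 3 had the reverse pattern. CD27, a TNF receptor family member of memory B cells, was at 11.71 in HT, 7.44 in OCI-LY-19 and 6.58 in Toledo, against 11.57 (KARPAS-422), a median of 12.65 and 13.01 (Pfeiffer). SEL1L3 was at 12.54 in HT, 5.08 in OCI-LY-19 and 7.30 in Toledo, and at 12.39 to 13.62 in mutant lines. IRF8, a transcription factor of germinal centre B cells, was at 12.35 in HT, 7.27 in OCI-LY-19 and 9.16 in Toledo, and at 11.54 to 12.71 in mutant lines. In these genes HT lies in or beside the range of mutant lines, and with HT included CD27 (3.83 ± 0.89; limma, adjusted p = 0.389) and SEL1L3 (4.84 ± 1.18; adjusted p = 0.421) were not called.

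For EZH2 itself no difference beyond the spread between lines was detected. It was at 11.72 in HT, 11.65 in OCI-LY-19 and 12.23 in Toledo, and in mutant lines ran from 11.55 in DB through a median of 11.79 to 12.33 in SU-DHL-10. The difference was -0.04 (exact two-sided permutation test over 120 choices of 3 of 10 lines, p = 0.892; the smallest p this design allows is 0.00833), within R tags it was -0.49, 0.14 and 0.19, and it turned to 0.09 with arrays at equal medians. The arrays measure the amount of EZH2 transcript and not the mutation or the enzyme's activity, so this level does not check the genotype labels.

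None of the 15 tested genes of PRC2 and the H3K27 demethylases was called, and 2 were below an unadjusted p of 0.05. JARID2, a PRC2 cofactor that helps to recruit the complex, was at 9.33 in HT, 11.49 in OCI-LY-19 and 10.58 in Toledo. Mutant lines ran from 8.02 in DB through a median of 8.75 to 10.12 in SU-DHL-6, which overlapped HT. The difference was -1.72 ± 0.52 (limma, adjusted p = 0.488), and it was -2.16, -0.75 and -1.38 within the R tags. AEBP2, another cofactor of the same PRC2 form, differed by -0.46 ± 0.18 (adjusted p = 0.577), with AEBP2 in SU-DHL-6 at 11.39 between Toledo at 11.34 and OCI-LY-19 at 11.45. The core subunits differed by -0.02 (EED), -0.17 (SUZ12), 0.03 (RBBP4) and -0.25 (RBBP7), and EZH1, the alternative catalytic subunit, by 0.12. The demethylases KDM6A and KDM6B, which remove the PRC2 mark, differed by -0.02 and 0.11. The SE was 0.14 to 0.44 for these 7 genes, so differences of that order were not detectable with 3 wild type lines, and the sign of EED, RBBP4, KDM6A and KDM6B turned under some alternative settings.

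**Figure D4:**
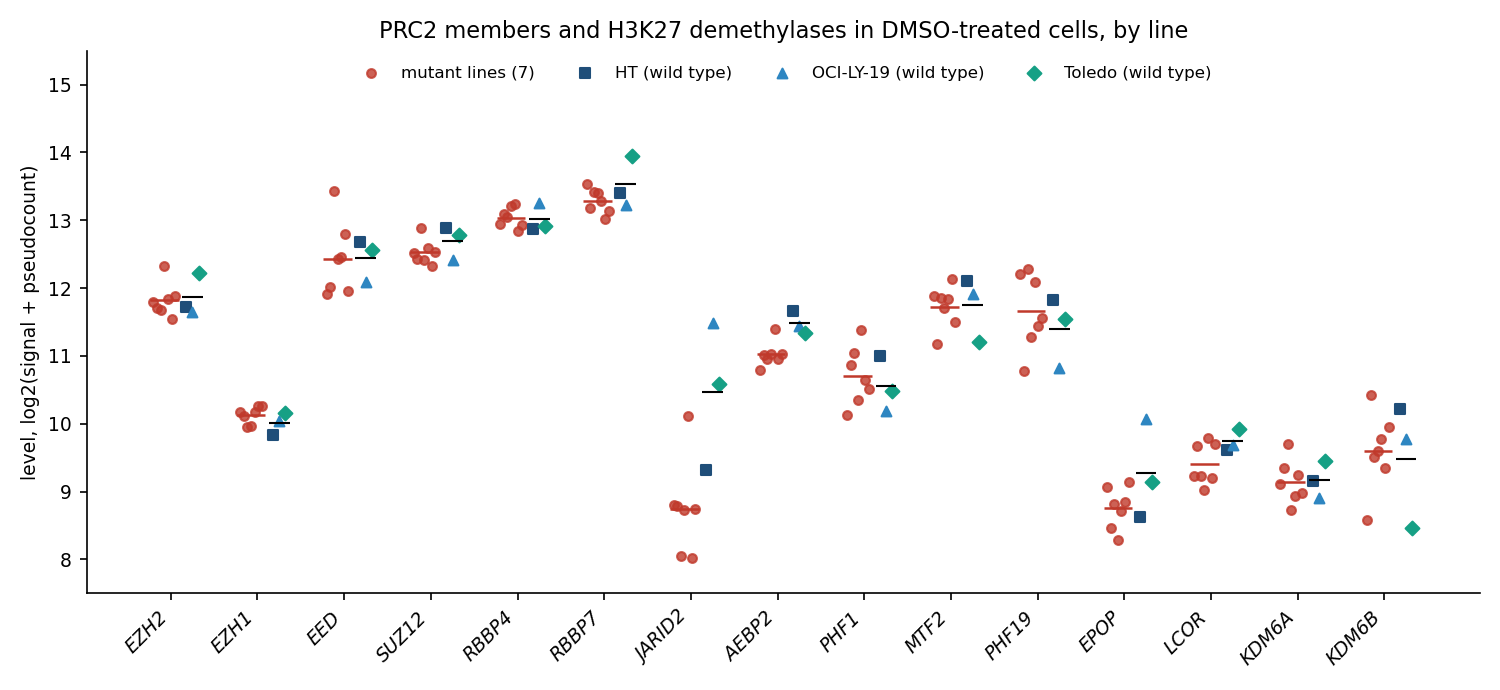
Level of the 15 tested genes of PRC2 and the H3K27 demethylases, in log2(signal + pseudocount), with 1 point per line (mean of 2 DMSO arrays) and short lines at the group means. The groups overlap in every gene; JARID2 has the largest difference, at -1.72.

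Among chromatin genes outside PRC2, no member was called with all 10 lines. RYBP, a PRC1 subunit, was lower by 1.38 ± 0.45 (limma, adjusted p = 0.509) among 16 tested PRC1 genes, of which it alone was below an unadjusted p of 0.05. The mutant lines lay below the wild type lines without overlap in ARID1B, a chromatin remodeller, and CREBBP, a histone acetyltransferase, 2 of 15 tested regulators that are often mutated in lymphoma, against 1.27% of all genes tested. Their differences were -1.12 ± 0.36 and -0.89 ± 0.40 (limma, adjusted p = 0.509 and 0.645). The nearest lines of the groups were only -0.13 and -0.09 from each other. Equal array medians moved the median difference of all genes by a like amount, from -0.01 to 0.10. On the GSK126 arrays the groups overlapped in ARID1B but not in CREBBP. Of 16 histone genes 14 were lower, with a median of -0.38 that was -0.19 without Toledo; with arrays at equal medians the share that was higher went from 12.5% to 31.2%. UHRF1, which guides maintenance of DNA methylation, differed by -0.996 ± 0.378 (adjusted p = 0.573). Without HT the difference of UHRF1 was -1.57 and called (adjusted p = 0.0358), and so was that of CBX2, a PRC1 subunit (-1.68, adjusted p = 0.0443), which was -0.82 with HT.

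No member was called in 3 gene classes that include known PRC2 targets, though not every member is one. Of 17 tested HOX genes, from 34 listed, none was below an unadjusted p of 0.05. Their median was -0.15, ranging from -0.31 without HT to 0.01 without OCI-LY-19. HOXA2, HOXD13 and HOXD9, those of smallest p, had line means of at most 6.53, 6.27 and 6.67. These are near the array medians, where a signal above background was not shown, so their lack of a difference says little. Of 27 other developmental transcription factors tested, from 50 listed, 1 was below an unadjusted p of 0.05, MEIS2, a TALE homeobox factor. Their median was 0.07, ranging from -0.07 without HT to 0.29 without Toledo. MEIS2 was at 10.64 in HT, 10.71 in OCI-LY-19 and 8.90 in Toledo, and at 11.02 to 11.68 in mutant lines, without overlap (1.36 ± 0.37; limma, adjusted p = 0.482). The 6 cyclin-dependent kinase inhibitors had a median of -0.36, which ranged from -0.52 without OCI-LY-19 to -0.07 without Toledo. Of them CDKN1B (p27) and CDKN3 were below an unadjusted p of 0.05, in opposite directions, at -1.46 ± 0.56 (adjusted p = 0.582) and 0.39 ± 0.17 (adjusted p = 0.640). CDKN2A differed by 1.41 ± 1.00 (adjusted p = 0.786) with DB at 8.74 and OCI-LY-19 at 7.45 as its lowest lines.

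Germinal centre genes had a median difference of 1.13 over the 28 tested, against -0.01 for all genes. It was not positive against every wild type line nor in every mutant line. Of the 28 genes 21 were higher (75%, against 48.8% of all genes). At an unadjusted p under 0.05, 7 were higher (25%, against 3.8% of all genes), and none was called. The mutant mean exceeded OCI-LY-19 by a median of 1.40 and Toledo by 1.58, and lay below HT by a median difference of -0.20. Against the wild type mean the list's median was -0.13 in Pfeiffer and 0.89 (KARPAS-422) to 1.83 (WSU-DLCL2) in the other mutant lines. BCL6, the repressor that holds the germinal centre programme, was at 13.40 in HT, 6.63 in OCI-LY-19 and 10.82 in Toledo, against 13.20 (SU-DHL-6), a median of 13.59 and 13.87 (KARPAS-422). HT thus had the BCL6 level of the mutant lines, and the difference was 3.26 ± 1.04 (limma, adjusted p = 0.505). ASB13, another member, was at 6.17 in HT, 7.71 in OCI-LY-19 and 9.05 in Toledo, against 7.95 (KARPAS-422) to 12.45 (WSU-DLCL2). HT was thus the lowest line for ASB13, and its difference was 3.18 ± 0.88 (limma, adjusted p = 0.488). S1PR2, which confines B cells to the germinal centre, was at 11.29 in HT, 5.95 in OCI-LY-19 and 7.20 in Toledo. In mutant lines it ran from 10.86 to 11.38, apart from DB at 7.85. SWAP70, a signalling adaptor of B cells, was the 1 member of 28 without overlap, where 1.1% of all genes were higher without overlap. Its difference was 1.43 ± 0.39 (limma, adjusted p = 0.482), with HT at 12.55 just under KARPAS-422 at 12.56. Within R6, R7 and R8 the list's median was 0.52, 0.07 and 1.63, and it was 0.49 without OCI-LY-19 and 1.69 without HT.

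**Figure D5:**
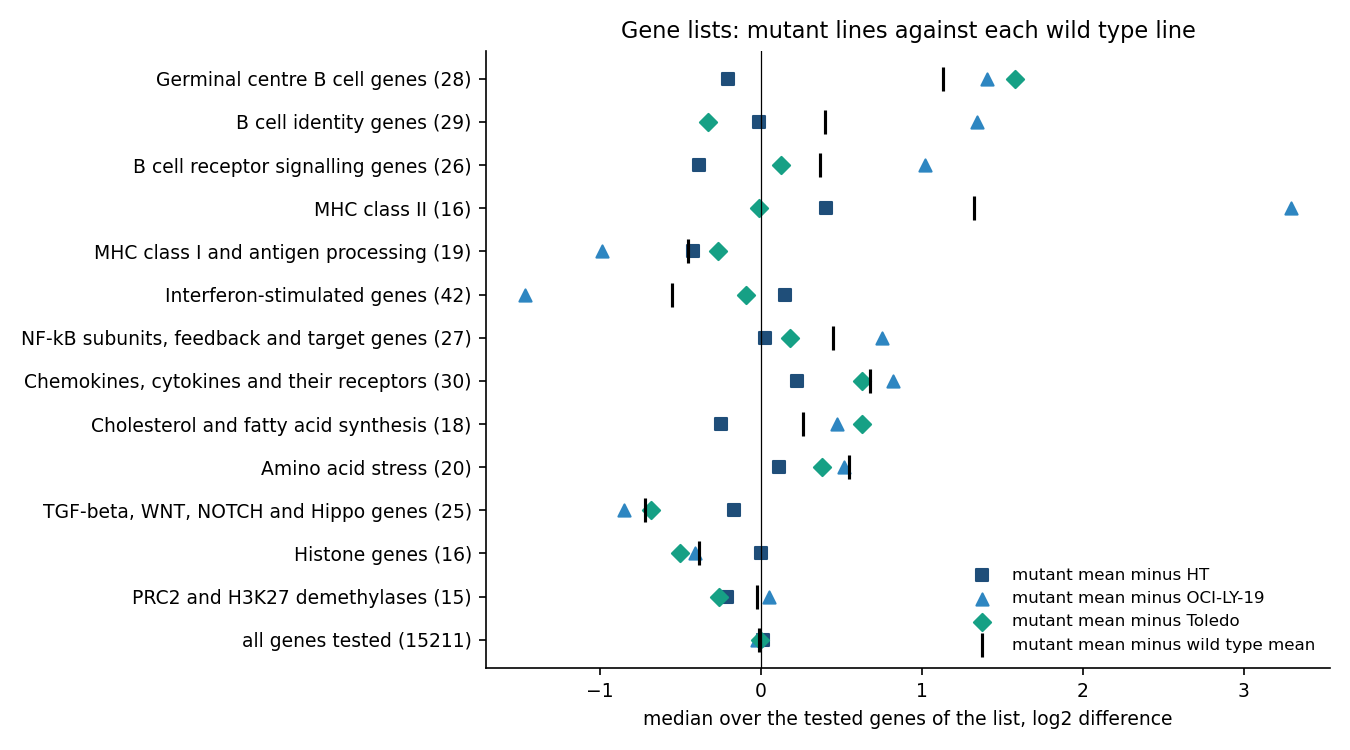
Median over the tested genes of a list (number in brackets) of the mutant mean minus HT, minus OCI-LY-19 and minus Toledo, with the difference from the mean of the 3 as a black bar; the x axis is in log2 units. OCI-LY-19 has the largest value for MHC class II genes, at 3.30, and HT lies at -0.20 for germinal centre genes where the other lines reach 1.40 and 1.58.

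MHC class II genes, which present antigen to helper T cells, differed mostly from OCI-LY-19. Of 16 tested genes 14 were higher in mutant lines and 3 were below an unadjusted p of 0.05, with a median of 1.32. Against OCI-LY-19 the median was 3.30, against HT 0.41 and against Toledo -0.01, and without OCI-LY-19 it was 0.30. For single mutant lines against the wild type mean it was -0.67 in DB and 1.06 (WSU-DLCL2) to 2.51 (Pfeiffer) in the others. HLA-DMB, which edits the bound peptide, was at 11.18 in HT, 7.26 in OCI-LY-19 and 11.05 in Toledo, against 10.19 (DB), a median of 12.34 and 12.54 (SU-DHL-6). Its difference was 2.07 ± 0.81 (limma, adjusted p = 0.591). MHC class I genes went the other way, with 16 of 19 lower and a median of -0.45, and none below an unadjusted p of 0.05. With arrays at equal medians the class I median was -0.33. The share of class I genes that was higher went from 15.8% to 31.6%, and that of all genes from 48.8% to 60.2%. HLA-B was at 13.23 to 13.82 in wild type lines and from 8.44 in DB to 14.18 in Pfeiffer in mutant lines. Within R6, R7 and R8 the class II median was 0.39, -0.06 and 3.99 and that of class I was 0.09, -0.42 and -1.05. The class I median was -0.30 without OCI-LY-19, -0.71 without KARPAS-422 and -0.72 without Toledo.

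No interferon-stimulated gene was called. Of 42 tested genes 26 were lower, 7 of them at an unadjusted p under 0.05 with none the other way, with a median of -0.55. Within R6, R7 and R8 that median was 1.09, -0.01 and -2.69, so the direction turned, and it was -0.03 without OCI-LY-19, -0.17 without Toledo and -0.31 without DB. For single mutant lines against the wild type mean it was 1.10 in KARPAS-422 and -1.10 (SU-DHL-6) to -0.27 (SU-DHL-10) in the others. IFIT5, which binds viral RNA, was at 8.78 in HT, 10.02 in OCI-LY-19 and 8.66 in Toledo. Pfeiffer at 8.69 and KARPAS-422 at 7.30 were near those values, while the other 5 mutant lines lay within 4.35 to 4.51. The difference was -3.71 ± 0.97 (limma, adjusted p = 0.468). PARP14, an ADP-ribosyltransferase, was at 9.25 in HT, 9.62 in OCI-LY-19 and 7.55 in Toledo, and in mutant lines ran from 4.67 in SU-DHL-4 through a median of 5.80 to 7.70 in SU-DHL-10 (-2.81 ± 0.77, adjusted p = 0.482). The mutant lines nearest the wild type level thus differed between these genes, with SU-DHL-10 among the low lines for IFIT5.

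No signalling gene was called. REL, an NF-kB subunit often amplified in germinal centre lymphoma, was at 10.51 in HT, 10.94 in OCI-LY-19 and 10.80 in Toledo, and from 10.94 in KARPAS-422 through a median of 12.70 to 14.32 in Pfeiffer (1.92 ± 0.53; limma, adjusted p = 0.484). CCL4, a chemokine induced by B cell receptor and NF-kB signals, was at 5.53 to 5.77 in wild type lines and at 6.38 (Pfeiffer) to 11.06 (KARPAS-422) in mutant lines, without overlap (2.60 ± 0.81, adjusted p = 0.501). Chemokine and cytokine genes had 24 of 30 higher and a median of 0.67, which was 0.65, 0.02 and 0.59 within the R tags, 0.34 without Pfeiffer and 0.37 without OCI-LY-19. NF-kB genes had 18 of 27 higher and a median of 0.45, which was 0.51, 0.13 and 0.89 within the tags, 0.15 without OCI-LY-19 and 0.26 without Pfeiffer. CR2 (CD21), a complement receptor of mature B cells, was at 9.16 in HT, 7.23 in OCI-LY-19 and 6.08 in Toledo, and at 4.45 to 5.96 in mutant lines (-2.60 ± 0.57, adjusted p = 0.327). Genes of the TGF-beta, WNT, NOTCH and Hippo pathways, the setting in which TGIF1 acts, had 18 of 25 lower and a median of -0.72, with 3 lower (SMAD4, ID3, SMAD1) and 1 higher (SMAD3) below an unadjusted p of 0.05. That median was -1.27, -0.12 and -0.23 within the tags, -0.31 without Toledo and -0.38 without OCI-LY-19.

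Lists of B cell stage and function held members that differed in opposite ways. B cell identity genes had 22 of 29 higher and a median of 0.40, which was -0.36, -0.0014 and 1.37 within the R tags and from -0.05 without OCI-LY-19 to 0.85 without Toledo. B cell receptor genes had 19 of 26 higher and a median of 0.37, which was 0.16, -0.25 and 0.98 within the tags, -0.06 without OCI-LY-19 and 0.60 without HT. FCRL3, an Fc receptor-like protein of B cells, was at 5.98 to 7.18 in wild type lines and ran from 6.91 in Pfeiffer to 13.58 in SU-DHL-6 in mutant lines (4.003 ± 1.223; limma, adjusted p = 0.488). CD86, a costimulatory ligand for T cells, was at 9.93 in HT, 4.63 in OCI-LY-19 and 6.81 in Toledo, against 8.68 (KARPAS-422), a median of 11.48 and 12.14 (Pfeiffer). CCR7, a receptor that guides lymphocytes to T cell zones, was at 5.06 in HT, 9.80 in OCI-LY-19 and 11.65 in Toledo and from 4.46 to 7.49 in mutant lines (-3.135 ± 1.196, adjusted p = 0.580). In both CD86 and CCR7, HT was inside the range of mutant lines. Plasma cell genes had a median of 0.07, memory and activated B cell genes 0.12, genes of activated B cell type lymphoma -0.04 and homing receptors -0.01, and each of these 4 medians turned sign with some line left out.

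No survival gene was called. BCL2A1, an anti-apoptotic NF-kB target, was at 5.38 to 6.14 in wild type lines and ran from 5.84 in KARPAS-422 to 13.32 in Pfeiffer (3.48 ± 1.35; limma, adjusted p = 0.586). MDM2, the ubiquitin ligase of p53, was at 10.17 in HT, 11.07 in OCI-LY-19 and 11.56 in Toledo and at 9.49 to 10.68 in mutant lines (-0.88 ± 0.34, adjusted p = 0.587). CD70, the ligand of CD27, was at 10.47 to 11.72 in wild type lines and from 6.13 in KARPAS-422 to 11.64 in WSU-DLCL2 in mutant lines (-2.22 ± 0.89, adjusted p = 0.602). Mutant lines thus spread more widely than the group difference in BCL2A1 and CD70.

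No metabolic or growth gene was called. Of 18 cholesterol and fatty acid synthesis genes 17 were higher, with a median of 0.26 and 4 below an unadjusted p of 0.05 (DHCR7, MVD, SCD and SREBF1). That median was -0.25 against HT, 0.47 against OCI-LY-19 and 0.63 against Toledo, and with 1 line left out it ranged from 0.12 without Toledo to 0.43 without HT. Amino acid stress genes had 17 of 20 higher and a median of 0.55, with 0.33, 0.34 and -0.07 within the R tags and 0.32 without OCI-LY-19, and only SLC7A5, an amino acid transporter, was below an unadjusted p of 0.05 (0.52 ± 0.23; limma, adjusted p = 0.636). NDRG1, a hypoxia-induced gene, was at 8.11 in HT, 7.48 in OCI-LY-19 and 9.24 in Toledo, and at 6.03 to 7.33 in mutant lines (-1.76 ± 0.39, adjusted p = 0.330). Medians were -0.15 for 30 mitosis genes, -0.03 for 30 DNA replication genes and 0.01 for 22 MYC targets. No list member was called in any of the 36 lists with all 10 lines. Without HT, of 678 tested members 7 were called higher (BCL6, CD27, CD86, ELL3, MVD, SEL1L3 and SREBF1) and 7 lower (CBX2, CCR7, HERC5, S1PR4, SESN1, SMAD1 and UHRF1), where 0.46% and 0.546% of all genes tested were.

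Whether the untreated difference was also present on other arrays of the same lines was read from the 20 arrays with GSK126. There 2 genes were called (0.0131%), IGLL1 at -6.18 ± 0.69 (limma, adjusted p = 0.0215) and SOBP at 4.08 ± 0.40 (adjusted p = 0.0131). All 8 genes kept their sign and their lines did not overlap on those arrays. PLEK differed by 4.35, TRIB2 by 4.35, ANKRD44 by 1.83, MID1IP1 by -4.54, TGIF1 by -4.20 and APOL3 by -2.74, with adjusted p from 0.0747 to 0.314. Of the 167 genes that were higher without overlap on DMSO arrays 78 were so on GSK126 arrays, where such genes numbered 177, and of the 193 lower genes 75 were, of 180. These are the same lines, so the second set repeats the measurement of a line and not the sampling of lines. A test of the change of the difference under GSK126 called 0 genes in limma, with 575 below an unadjusted p of 0.05. The largest change among the 8 genes was 0.88 ± 0.45, for IGLL1, a movement of the mutant lines toward the wild type level that did not pass (adjusted p = 0.992).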

How the data were processed

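RNA of each culture was taken up in Trizol, cleaned on RNeasy columns and hybridised to a one-colour Affymetrix array, per the labels' protocols. The authors deposited log2 signals made with MAS5 per the submitters' processing notes, with its version not given in the sources used here. The method scales each array by itself; brought back to linear, every array had a trimmed mean of 500. Of 54675 probe sets, 41091 carried 1 gene symbol in the platform annotation supplied, which can be old, 1801 several, 11721 none and 62 were controls. The single-symbol probe set of highest mean stood for its gene, and 15211 of 19775 genes passed the filter on low values.

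Arrays were grouped by the line and treatment in the labels, and the 2 DMSO arrays of a line were averaged as log2(signal + 17.72). The pseudocount is the median of the arrays' 25th percentiles. limma 3.58.1 in R 4.3.3 (lmFit, eBayes with an intensity trend) compared 7 mutant with 3 wild type line means, with 8 residual and 2.58 prior degrees of freedom, two-sided, with Benjamini-Hochberg adjustment over all genes tested. Each ± is a standard error from limma. The number of lines limits the precision. EZH2 was tested by an exact permutation over lines.

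Named genes are the called genes, up to the 10 smallest p-values in each direction, every tested PRC2 gene, and up to 3 members of each other list by p. X-inactivation and Y-linked genes were tested (0 of them called) and are not named. The 36 lists hold 808 genes, 678 tested, and are described by counts and medians with no set test. The members and lists were chosen with earlier results of these data known. Promoter windows came from a RefSeq table of GRCh38.p14, and CG dinucleotides were counted in them. Alternatives covered scaling, pseudocount, filter, probe set summary, blocks and left-out lines or replicates.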

Additional observations from a re-analysis of the deposited data

Results flagged for a closer look

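For 13 of the 134 named genes, 1 mutant line stood apart from the other 6: its gap to the nearest line took a larger share of the range of the 7 lines than Dixon's critical value allows. Chance flags about 1 in 20 groups. KARPAS-422 was the odd line for CD86 (low at 8.68, ratio 0.725), ITGAM (high, 0.628) and ALAS2 (high, 0.582). Pfeiffer was the high line for ETV6 (11.04, where the next line was at 6.54; ratio 0.684), CR2 (0.65) and ORC6 (0.627). SU-DHL-6 was high for JARID2 (0.629) and AEBP2 (0.594) and low for SLC7A5 (0.593). DB was low for S1PR2 (7.85 against 10.86 in the next line, the largest ratio of all at 0.852). SU-DHL-10 was low for BUB1 (0.642), SU-DHL-4 low for POU3F2 (0.659) and WSU-DLCL2 high for APOL3 (0.678), where all mutant lines are near the bottom of the scale. The causes were not tested.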

How the results depend on the processing

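Over 23 alternative settings, 120 of 133 named genes other than EZH2 kept their direction throughout. Calls of IGLL1 and TRIB2 held in all 23, and that of APOL3 in all except the largest pseudocount. The other 5 called genes lost the call with the R tag as a block, which left 2 genes higher and 2 lower, and under at least 5 of the left-out lines. SOBP also lost it with the mean of all probe sets, PLEK with the largest pseudocount, and MID1IP1 with the smallest and without the filter. With 1 line left out, genes called ranged from 1 to 70 higher and from 2 to 83 lower, with the highest counts without HT, and non-overlapping genes from 165 to 809 higher and from 186 to 943 lower, left-out replicates included. At equal medians 125 genes were lower without overlap in place of 193. Treating the 20 arrays as units with the line as a random block called 94 higher and 49 lower (correlation within a line 0.904). Genotype varies only between lines, so a fit with arrays as units overstates the degrees of freedom for this contrast. Its larger counts are therefore no evidence for more genes than the fit on line means called. Adding the replicate number as a block gave 69 and 38, with the same limit. The numbers do not pair arrays: between lines, replicate differences correlated at -0.09 to 0.08 over 45 pairs. Quantile scaling, either replicate left out and no filter changed no count by over 1.5 times.

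The values that turned sign were not called before or after. EZH2 ranged from -0.15 to 0.14 without single lines or replicates and was 0.0884 at equal medians. The ranges were -0.19 to 0.10 for EED (0.11 at equal medians), -0.0450 to 0.15 for RBBP4 (-0.22 with the mean of probe sets), and -0.29 to 0.16 for MTF2 (0.11 at equal medians, 0.00764 with the R tag). They were -0.16 to 0.12 for KDM6A (0.00753 with quantile scaling, 0.10 at equal medians), -0.40 to 0.48 for KDM6B, -0.0383 to 0.37 for PHF1 and -0.0238 to 0.48 for PHF19. ITGAM ranged from -0.32 to 0.22 (0.0763, 0.0622 and 0.0229 with quantile scaling, equal medians and the R tag). HSPD1 ranged from -0.0376 to 0.20, LYZ from -0.80 to 0.0428, CSF1R from -0.56 to 0.0536, TEK from -0.0170 to 0.87 and ALAS2 from -0.00670 to 0.39. The causes were not tested.

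With 3 wild type lines, 1 line decides much of any group difference. Dim genes near the bottom of the MAS5 scale have unsure levels.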
